A study of Mus musculus with 48 samples.

Results

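The circadian clock genes described here are 10 genes (Per1, Per2, Per3, Cry2, Nr1d1, Nr1d2, Dbp, Tef, Arntl and Clock), chosen by name, of the 23538 to 23643 entries with a gene symbol in a table. Each was found in every one of the 8 tables of the study. RNA was measured by poly-A selected RNA-seq in the cerebellum (CB) and the inferior olive (IO), the brainstem nucleus that sends climbing fibers to Purkinje cells, of male mice of 2 models of spinocerebellar ataxia type 1 at 5 and 12 weeks of age. The knock-in (KI) mice were Atxn1 154Q/2Q on a C57BL/6J background, in which mouse Atxn1 with an expanded glutamine tract is expressed from its own regulatory elements. The transgenic (Tg) mice were ATXN1-82Q on an FVB/NJ background, in which the Pcp2 promoter drives human ATXN1 in Purkinje cells, so that the transgene is not expressed by the cells of the inferior olive. Mutants of each model were set against wild-type (WT) mice of the same strain, with 3 biological replicates in each of the 16 groups and 48 libraries in all. All mice lived in a 12 hr light/dark cycle. The hour of dissection is not given in the sources used here.

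The molecular clock is a loop of transcription and translation that runs in nearly every cell. Arntl (also called Bmal1) and Clock encode the activators, which bind E-boxes and switch on the Per and Cry genes, whose proteins repress the activators, and Nr1d1 and Nr1d2, which encode the REV-ERB repressors of Arntl. The same activators drive Dbp, which encodes a PAR bZIP transcription factor, and Tef encodes a relative of it. PAR bZIP factors bind D-boxes, among them those of the Per genes. In brain tissue outside the suprachiasmatic nucleus the loop also runs, and Arntl RNA peaks at the opposite time of day from Dbp, Per3 and Nr1d1, so the levels of these genes depend on the hour at which a tissue is taken.

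The sequences before the start sites of Per3 and Tef are shown because these genes carry most of the differences below. They hold D-boxes and an E-box, the binding motifs named above. An E-box was also found in a window of Per1 and in that of the first Tef start, and the Dbp window held neither motif. Both windows shown are the 250 bases before a RefSeq start site (GRCm38.p6), on the strand of the gene. Capitals mark D-boxes (TTATGTAA, searched on both strands) in Per3 and the E-box (CACGTG, the same on both strands) in Tef. The Per3 window is chr4:151044666-151044915 on the minus strand. The Tef window is chr15:81811164-81811413 on the plus strand, which lies between annotated exons, before the second of its start sites.
Per3: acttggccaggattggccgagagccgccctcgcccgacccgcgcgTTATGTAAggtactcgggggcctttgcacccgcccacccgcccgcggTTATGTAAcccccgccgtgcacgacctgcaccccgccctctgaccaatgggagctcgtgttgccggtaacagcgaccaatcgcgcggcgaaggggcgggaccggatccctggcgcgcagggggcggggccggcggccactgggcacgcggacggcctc
Tef: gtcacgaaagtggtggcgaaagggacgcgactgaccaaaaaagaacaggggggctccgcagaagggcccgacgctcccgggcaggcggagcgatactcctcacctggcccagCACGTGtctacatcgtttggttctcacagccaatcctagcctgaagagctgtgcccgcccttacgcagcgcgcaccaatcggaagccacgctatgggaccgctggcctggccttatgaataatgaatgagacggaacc
Per3 held 2 D-boxes, which began 205 and 158 bases before its start. The D-box was present in 0.819% of 32851 windows of this length, and the E-box, which began 138 bases before the Tef start, in 6.02%. These are matches of letters, and binding was not measured.

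Not every entry held 1 gene alone. The entry with Dbp also named Car11, which encodes a carbonic anhydrase related protein and ends 405 bases before Dbp on chromosome 7, in 7 tables. In the exception, KI IO at 5 weeks, the genes were listed apart and Dbp held 24.3% of the FPKM (fragments mapped to a gene, scaled to its transcript length and to the depth of the library) of both. The shared entry is called the Car11 and Dbp entry below, and most of its signal may belong to Car11. Cry2 shared its entry with Mapk8ip1 in KI CB at 12 weeks, where the WT mean was 145.1 FPKM against single values of 14.7 to 37.9 FPKM elsewhere, so it is not read as Cry2 there. Exons of Nr1d1 overlap those of Thra on the other strand by 263 bases (8.55% of its exonic bases), and exons of Dbp overlap Sphk2 by 539 bases (18%). Strand use in counting is not given, so reads of these pairs may not be told apart.

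The libraries matched their tissue labels. The summed FPKM of 8 cerebellar marker genes was 1402 to 3231 in cerebellar libraries and 45.6 to 153.7 in inferior olive libraries, and that of 8 medullary genes was 5.69 to 20.97 and 193.5 to 253.1. Between 12439 and 13063 genes reached 1 FPKM in a library. The deepest library of a table held 1.15 to 1.96 times the fragments of the shallowest, as estimated from the lowest values. The 10 markers of choroid plexus epithelium, tissue that can be carried along in a dissection, summed to 67.9 to 2468 FPKM in the cerebellum and to 168.8 to 5457 FPKM in the inferior olive, so this admixture differed widely between libraries. In whole tissue, fewer cells of a type and less RNA per cell cannot be told apart.

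All 10 genes were expressed in both tissues, and the WT levels of most differed by tissue and by strain. Tef was among the highest, with WT means from 39.0 ± 3.70 FPKM (SD, n = 3) in KI IO at 5 weeks to 90.1 ± 6.54 in Tg CB at 12 weeks. Arntl ran from 4.40 ± 0.366 FPKM in Tg IO at 5 weeks to 21.5 ± 1.14 in KI CB at 5 weeks. Its WT libraries were higher in every cerebellar table than in any inferior olive table, and higher in the KI than in the Tg table of the same tissue and age. In the order of Arntl means the neighbors KI CB at 5 and 12 weeks overlapped, as did the Tg CB tables and the Tg IO tables with each other. Per3 had the reverse order of strains. Its WT mean was 14.3 ± 0.570 FPKM in Tg CB and 6.47 ± 0.572 in KI CB at 12 weeks, and 7.22 ± 0.761 in Tg IO and 4.34 ± 0.150 in KI IO. Per2 behaved like Per3, with WT means of 9.49 ± 0.983 FPKM in Tg CB and 3.95 ± 0.567 in KI CB at 12 weeks. Clock stayed between 13.99 ± 1.15 and 19.2 ± 1.47 FPKM, and its WT libraries overlapped between strains in all but CB at 5 weeks. Nr1d1 was higher in Tg than in KI WT libraries in CB at both ages. In IO its strains overlapped at 5 weeks, and KI was higher at 12 weeks. Values of different tables were normalized separately and the strains were not run in the same table, so no test was made. Strain, colony and hour of dissection cannot be told apart in this contrast of WT mice.

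**Figure D1:**
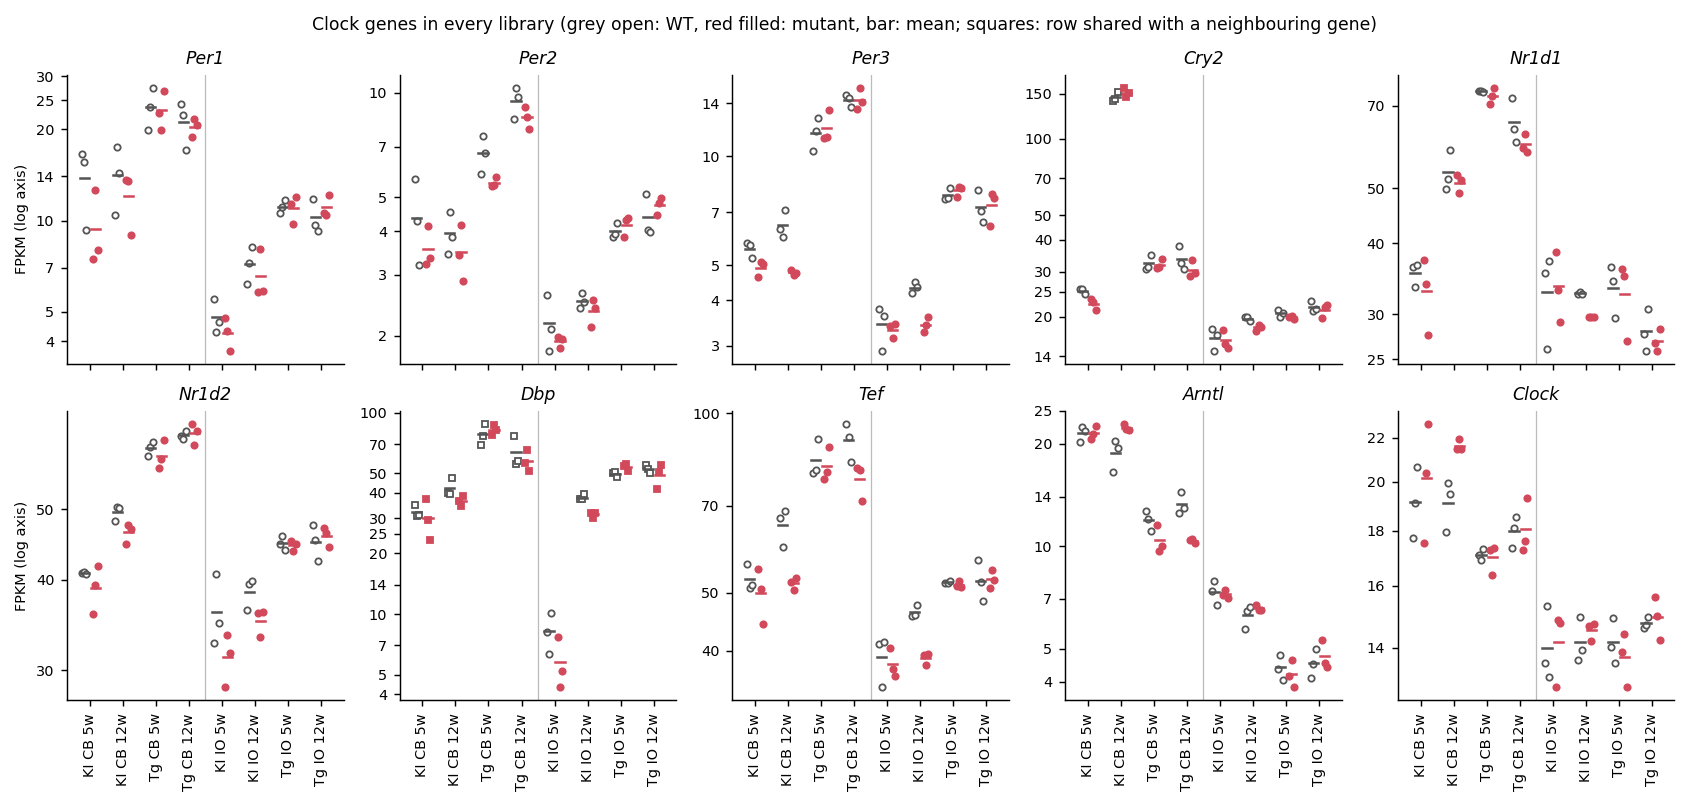
FPKM (log axis) of the 10 clock genes in all 48 libraries, by table (CB cerebellum, IO inferior olive, w weeks of age). Grey open symbols are WT, red filled symbols are mutants, bars are means of 3, and squares are entries shared with a neighboring gene. Arntl is highest in the KI cerebellum, whereas Per3 and Tef are highest in the Tg cerebellum.

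At 5 weeks limma called 0 of the 10 clock genes in each of the 4 tables. Each mutant group was tested against the WT libraries in its table with limma, on log2(FPKM + 0.1) over all genes, and a gene was called at a Benjamini-Hochberg adjusted p below 0.05. The share of all genes tested that was called was 0.0074% in KI CB, 0.0145% in KI IO, 4.1% in Tg CB and 0% in Tg IO. At an unadjusted p below 0.05 limma gave 1 of 10 clock genes in KI CB (all genes 3.65%), 0 in KI IO (5.99%), 2 in Tg CB (14.5%) and 1 in Tg IO (6.57%). In KI CB the genotypes did not overlap for 2 of the 10, against 9.54% of all genes. These were Per3 (log2 fold change -0.17 ± 0.09, SE) and Cry2 (-0.17 ± 0.07), both lower in mutants with a limma adjusted p of 0.999.

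The lowest value among the repressors at 5 weeks was that of Per1, the light-responsive period gene, in KI CB. Its WT libraries gave 16.6, 15.6 and 9.30 FPKM and its mutants 7.47, 12.6 and 8.01 FPKM. WT replicate 3 lay within the mutant range, and the log2 fold change was -0.55 ± 0.27 (SE) with an adjusted p of 0.999. GC-rich genes were lower in these mutants (Spearman correlation of GC content and log2 fold change across 12923 genes, -0.40). The longest annotated transcript of Per1 is 59.4% GC, against a median of 49.7% over genes. Per2 in Tg CB was 5.86, 7.51 and 6.72 FPKM in WT and 5.39, 5.43 and 5.71 FPKM in mutants, with every mutant below every WT library. Its log2 fold change was -0.27 ± 0.09 (adjusted p = 0.176). Without WT replicate 1 it was -0.36 and passed the test (adjusted p = 0.0359).

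KI IO at 5 weeks is the table in which Dbp can be read alone. The WT libraries held 8.12, 6.34 and 10.2 FPKM and the mutants 7.71, 4.32 and 5.19 FPKM. The mutant mean was lower, but mutant replicate 1 lay above WT replicate 2. The log2 fold change was -0.52 ± 0.23 (unadjusted p = 0.0542, adjusted p = 0.827), the lowest of the 10 clock genes there. Car11 had a log2 fold change of -0.01 ± 0.16 in the same libraries.

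At 12 weeks in the KI cerebellum the clock output genes Tef and Per3 fell. Of the 10 clock genes, 2 were called, both lower, in a table in which 5.58% of all 13431 genes were called and 3.57% were called lower. The libraries of the genotypes did not overlap for 6 of the 10, against 32.1% of all genes. The median log2 fold change was -0.14 for the clock genes, -0.18 for the 9 without the entry of Cry2 and Mapk8ip1, and 0.01 for all genes.

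Per3, a period gene that is dispensable for rhythm but a strong output of it, had 6.31, 5.99 and 7.10 FPKM in WT and 4.86, 4.71 and 4.76 FPKM in mutants. The mutants lay close together and below all WT mice. The log2 fold change was -0.43 ± 0.08 (adjusted p = 0.0234). Tef had 66.7, 59.6 and 68.5 FPKM in WT and 52.1, 50.5 and 53.0 FPKM in mutants. The groups were again apart, with a log2 fold change of -0.32 ± 0.06 (adjusted p = 0.0231). Without WT replicate 3, or without any of the 3 mutants, neither gene was called, with adjusted p of 0.0655 to 0.103, while the log2 fold changes stayed at -0.36 to -0.44 for Per3 and -0.28 to -0.34 for Tef.

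The activators stood on the other side in the same libraries without passing the test. Arntl was 16.6, 20.4 and 19.5 FPKM in WT and 22.9, 22.1 and 22.05 FPKM in mutants. Every mutant exceeded every WT library, and the log2 fold change was 0.25 ± 0.08 (adjusted p = 0.0950). Without WT replicate 2 it was 0.31 (adjusted p = 0.0497). Clock was 17.9, 19.9 and 19.5 FPKM in WT and 21.4, 21.9 and 21.4 FPKM in mutants, also without overlap, with a log2 fold change of 0.18 ± 0.05 (adjusted p = 0.0817). The Car11 and Dbp entry (-0.21 ± 0.08, adjusted p = 0.150) and Nr1d2 (-0.09 ± 0.04, adjusted p = 0.210) had all mutants below all WT libraries. Per1 (-0.22 ± 0.22), Per2 (-0.18 ± 0.15) and Nr1d1 (-0.06 ± 0.06) overlapped between genotypes.

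Some markers of glia and of Purkinje cells were called lower in the same mutants. Of 6 astrocyte markers 3 were called lower and 1 had a higher mean (sums of 721 to 821 FPKM in WT and 659 to 681 in mutants), and of 8 Purkinje cell markers 3 (2661 to 3169 and 2320 to 2502). Of 7 oligodendrocyte markers 1 was called lower and all 7 had a lower mean (2006 to 3050 and 1736 to 1766). Of 6 microglial markers limma called 0, with 2 at an unadjusted p below 0.05, where 24.4% of all genes were (36.3 to 50.6 and 34.1 to 35.7). Choroid plexus markers had 0 of 10 called by limma and 0 at an unadjusted p below 0.05 (580 to 2004 and 67.9 to 2098). No marker of these lists was at 0. GC-rich genes were slightly lower in these mutants (Spearman correlation of GC content and log2 fold change across 12846 genes, -0.14). Removal of a GC trend from each library left Tef at -0.32 (adjusted p = 0.0201) and Per3 at -0.43 (adjusted p = 0.0196). The part of the cell markers in the clock gene differences was not tested.

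Tef was also lower at 12 weeks in the inferior olive of KI mutants. Both tissues may come from the same mice, so their values may not be independent. Of the 10 clock genes 2 were called, both lower, where 1.49% of all 13990 genes were called and 1.23% were called lower. For 6 of the 10 the genotypes did not overlap, against 19.2% of all genes. The median log2 fold change was -0.13 for the clock genes and -0.01 for all genes.

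Tef was 45.7, 46.0 and 47.6 FPKM in WT and 39.3, 37.8 and 39.5 FPKM in mutants, a clear gap between narrow groups. Its log2 fold change was -0.26 ± 0.03 (adjusted p = 0.0139). The Car11 and Dbp entry was 37.1, 37.3 and 39.5 FPKM in WT and 32.0, 30.1 and 31.7 FPKM in mutants. It had no overlap either, with a log2 fold change of -0.28 ± 0.04 (adjusted p = 0.0181). Without WT replicate 2, WT replicate 3 or mutant replicate 1 neither was called (adjusted p of 0.0513 to 0.0979), and without mutant replicate 2 the entry alone was lost (0.0555). With a GC trend removed from each library the entry had a log2 fold change of -0.22 (adjusted p = 0.0748). The longest annotated transcripts of Dbp and Car11 are 61.6% and 60.4% GC, against a median of 49.7% over genes.

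Per3 was 4.18, 4.48 and 4.34 FPKM in WT and 3.27, 3.42 and 3.60 FPKM in mutants, with a gap of the same direction as in the cerebellum. The log2 fold change was -0.33 ± 0.06 and missed the threshold (adjusted p = 0.0542). Nr1d1 gave 32.6, 32.8 and 32.5 FPKM in WT and 29.7, 29.7 and 29.6 FPKM in mutants, narrow groups that did not overlap. Its log2 fold change was -0.14 ± 0.03 (adjusted p = 0.0852). Nr1d2 (-0.13 ± 0.05) and Cry2, a repressor of the activators (-0.12 ± 0.04), were also free of overlap and did not pass (adjusted p of 0.311 and 0.261). Arntl (0.07 ± 0.07) and Clock (0.04 ± 0.05) overlapped between genotypes. Of 6 astrocyte markers 3 were called lower here and 1 had a higher mean (908 to 1015 FPKM in WT and 828 to 852 in mutants). Of 7 oligodendrocyte markers 1 was called lower and all 7 had a lower mean (6221 to 6572 and 5682 to 5858). Of 8 cerebellar markers 2 were called lower (60.8 to 72.9 and 45.6 to 53.1), and choroid plexus markers had a lower mean for 10 of 10 with 0 called by limma and 0 at an unadjusted p below 0.05 (1205 to 5457 and 168.8 to 3351). Their part in the clock gene values was not tested.

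In the Tg cerebellum at 12 weeks Arntl was lower. Arntl was 12.5, 14.5 and 12.98 FPKM in WT and 10.4, 10.5 and 10.2 FPKM in mutants. The mutants lay close together and below every WT library. Its log2 fold change was -0.36 ± 0.07 (adjusted p = 0.0210), and it was the 1 clock gene of the 10 called, where 7.51% of all 13641 genes were called and 5.26% were called lower. A count of 1 in 10 is near that share. Without WT replicate 2 or any of the 3 mutants the adjusted p was 0.0502 to 0.0794, and the log2 fold change was -0.30 to -0.36. At 5 weeks Arntl was 12.7, 12.0 and 11.1 FPKM in WT and 11.5, 9.68 and 10.03 FPKM in mutants. Mutant replicate 1 lay inside the WT range there, and the log2 fold change of -0.20 ± 0.07 did not pass (adjusted p = 0.261).

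No output gene was called in these Tg mice. Tef at 12 weeks was 95.9, 91.3 and 83.0 FPKM in WT and 81.0, 80.4 and 71.3 FPKM in mutants, without overlap but with an adjusted p of 0.132 (-0.21 ± 0.07). Per3 was 14.7, 14.5 and 13.6 FPKM in WT and 13.5, 15.4 and 14.1 FPKM in mutants, and the genotypes were mixed (0.00 ± 0.07). Clock (0.00 ± 0.06) and Nr1d2 (0.01 ± 0.05) also showed no separation. Tef and Arntl were the 2 of 10 clock genes without overlap, against 29.2% of all genes.

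Rora, which encodes an ROR activator that competes with the REV-ERB proteins at Arntl, was called lower in the same table. Rora was 57.1, 53.9 and 51.3 FPKM in WT and 35.4, 38.5 and 38.3 FPKM in mutants (log2 fold change -0.53 ± 0.06, adjusted p = 0.00169). At 5 weeks it was already lower, at -0.42 ± 0.05 (adjusted p = 0.00196). Rora is also a gene of Purkinje cells, the cells that express the transgene. Of the 8 Purkinje cell markers 7 were called lower at 12 weeks (2430 to 3026 FPKM in WT and 1177 to 1283 in mutants) and 8 at 5 weeks. At 12 weeks 2 of 6 microglial, 2 of 6 astrocyte and 2 of 7 leptomeningeal markers were called higher, and 1 astrocyte marker had a lower mean. Limma called 0 of 10 choroid plexus and 0 of 7 oligodendrocyte markers, all with a higher mean, and 8 and 6 of them had an unadjusted p below 0.05, as did 23.4% of all genes (choroid plexus sums of 760 to 1682 FPKM in WT and 1757 to 2468 in mutants, oligodendrocyte sums of 1642 to 2082 and 2194 to 2752). The part of Purkinje cell RNA in the Arntl and Rora differences was not tested.

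In the Tg inferior olive no clock gene was called at 12 weeks, as at 5 weeks, and limma called 0% of all 13887 genes. At an unadjusted p below 0.05 it gave 0 of the 10 (all genes 3.43%). The log2 fold changes ran from -0.11 to 0.12. Tef was 56.7, 52.2 and 48.4 FPKM in WT and 51.0, 54.7 and 52.6 FPKM in mutants, with the genotypes mixed. Arntl (0.07 ± 0.10) and Per3 (0.02 ± 0.10) overlapped as well. Glucocorticoid-induced genes had a higher mean in these mutants for 10 of 10 (1051 to 1353 FPKM in WT and 1350 to 1958 in mutants). Limma called 0 of them, with 6 at an unadjusted p below 0.05. Per1, which glucocorticoids also induce, had a log2 fold change of 0.11 ± 0.10. In Tg CB at 12 weeks 7 of 10 had a higher mean, limma called 0 (all genes 7.51%), and Per1 had -0.04 ± 0.12. The part of glucocorticoids in the clock gene values was not tested.

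**Figure D2:**
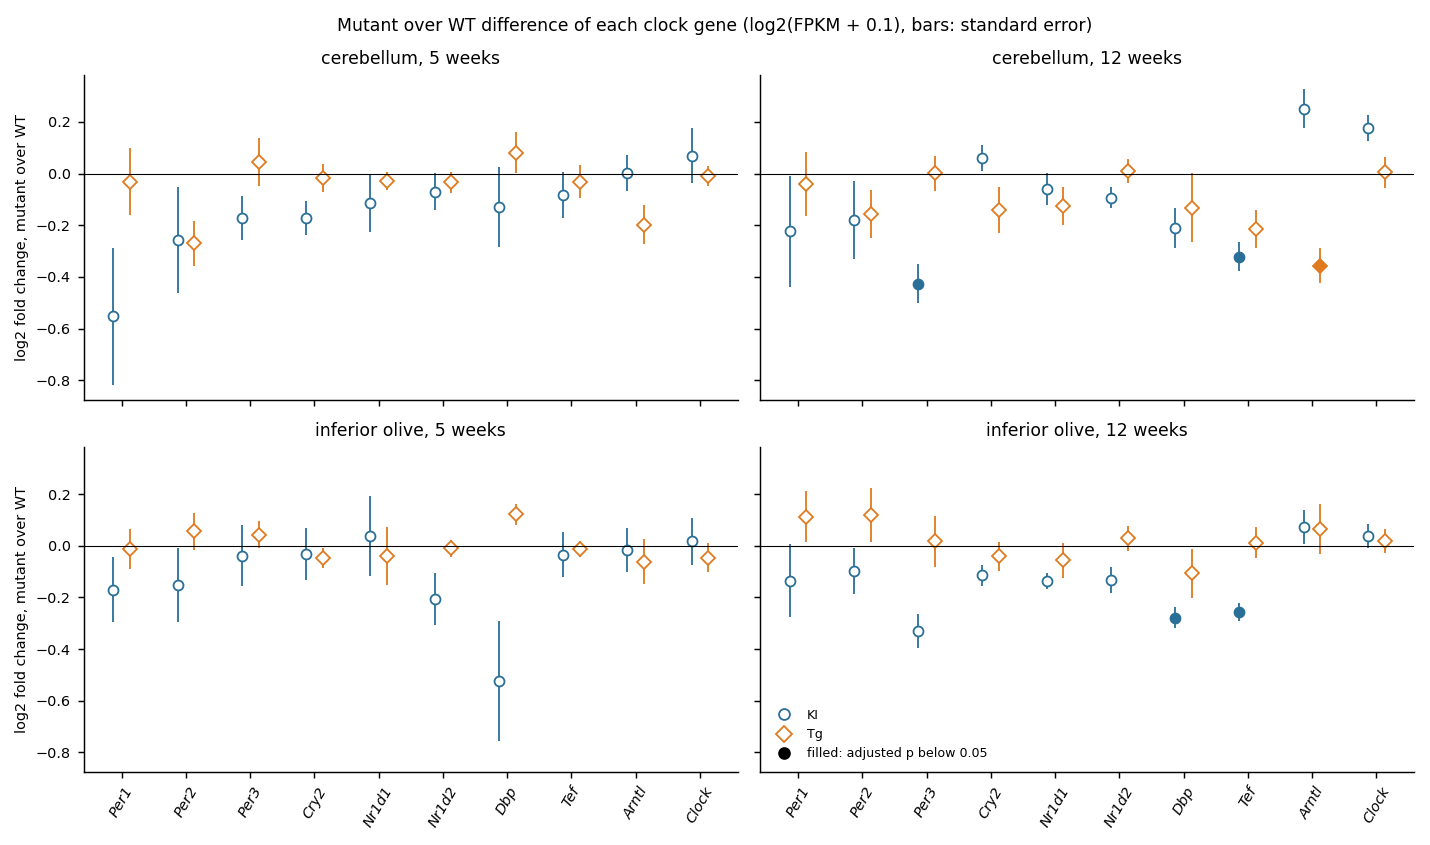
Log2 fold change of mutants over WT on the log2(FPKM + 0.1) scale (y axis) for each clock gene (x axis), by tissue and age. Blue circles are KI, orange diamonds are Tg, bars are standard errors and filled symbols are values with an adjusted p below 0.05. Filled symbols appear at 12 weeks alone, for Per3 and Tef in KI CB, Dbp (with Car11) and Tef in KI IO and Arntl in Tg CB.

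Whether the genotype difference itself depended on model, tissue or age was tested with an interaction term in 12 pairs of tables. Genes whose entries carried different names in the 2 tables could not enter, which left 9 or 10 clock genes per pair and 114 tests. In the cerebellum at 12 weeks the KI and Tg models differed for 2 of the 9 clock genes, Arntl and Per3, where 11.7% of all 12327 genes were called. The genotype difference of Arntl was 0.25 in KI and -0.36 in Tg, so that Tg minus KI was -0.61 ± 0.10 (adjusted p = 0.00445). It was called under all 17 alternative settings and single omissions of a library, with values of -0.67 to -0.52. That of Per3 was -0.43 in KI and 0.00 in Tg, a difference of 0.43 ± 0.10 (adjusted p = 0.0194). Without KI mutant replicate 2 the adjusted p of Per3 was 0.0509. Each mutant was set against controls of its own table, and strain, allele and expressing cells differ together between the models.

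No other interaction of a clock gene was called by limma. The tests of tissue called 0% of all genes in KI at 5 weeks, 1.99% in KI at 12 weeks and 2.53% in Tg at 5 weeks, and those of model 0.825% in the cerebellum and 0.0157% in the inferior olive at 5 weeks. At an unadjusted p below 0.05 the tests of tissue gave 0 clock genes in KI at 5 weeks (all genes 4.23%), 0 in KI at 12 weeks (15.2%), 1 in Tg at 5 weeks (10.2%) and 2 in Tg at 12 weeks (18.5%). Those of model gave 0 in either tissue at 5 weeks (7.16% and 5.5%), 3 in the cerebellum at 12 weeks (29%) and 3 in the inferior olive at 12 weeks (6.78%). For Arntl in Tg mice at 12 weeks, IO minus CB was 0.42 ± 0.12 (adjusted p = 0.0737, all genes 4.87% called). Without Tg IO WT replicate 3 it was 0.49 (adjusted p = 0.0410). For Tef in the inferior olive at 12 weeks, Tg minus KI was 0.27 ± 0.07 (adjusted p = 0.248, all genes 0.211% called). The 4 tests of age had 0 of the clock genes called by limma (all genes 0% to 0.0877%). At an unadjusted p below 0.05 they gave 2 in KI CB (all genes 7.12%), 2 in KI IO (5.08%), 0 in Tg CB (13.6%) and 0 in Tg IO (6.45%). These were Per3 (-0.25 ± 0.11, 12 minus 5 weeks) and Arntl (0.25 ± 0.11) in KI CB, and Per3 (-0.29 ± 0.13) and Tef (-0.22 ± 0.10) in KI IO.

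**Figure D3:**
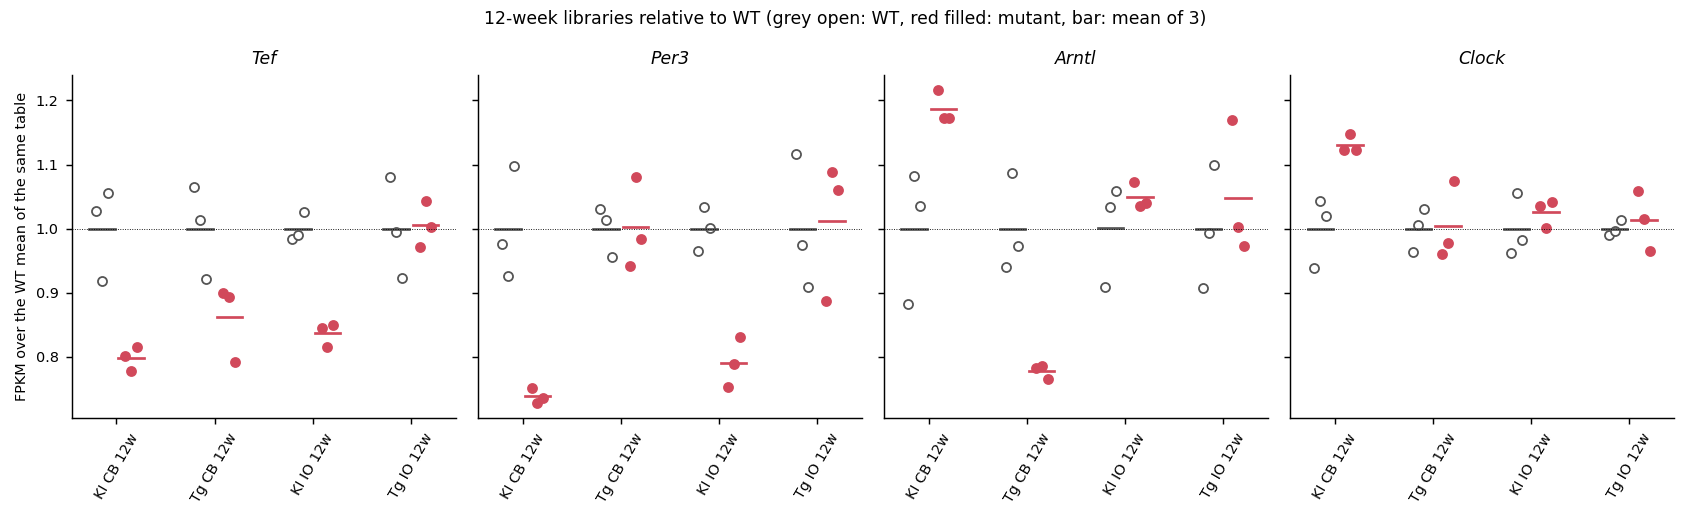
FPKM of each 12 week library over the WT mean of its table (y axis) for Tef, Per3, Arntl and Clock in the 4 tables (x axis). Grey open circles are WT, red filled circles are mutants and bars are means of 3. Arntl lies above all WT libraries in KI CB and below all of them in Tg CB, and Tef and Per3 lie below all of them in KI CB and KI IO.

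Other genes of the clock gave the following counts, for lists of activators, repressors, PAR bZIP factors, other outputs, and clock kinases and ubiquitin ligases. In KI CB at 12 weeks all 4 activators had a higher mean and 0 were called by limma, with 3 at an unadjusted p below 0.05, where 24.4% of all genes were. Npas2, a relative of Clock, was 1.74, 1.41 and 1.60 FPKM in WT and 2.12, 2.06 and 1.74 FPKM in mutants, without overlap (0.30 ± 0.12, adjusted p = 0.180). Of 3 PAR bZIP genes 2 were called lower, Hlf and Tef, which is counted among the 10 above. Of all genes 3.57% were called lower there. Hlf was 33.1, 30.9 and 31.6 FPKM in WT and 21.5, 23.2 and 22.4 FPKM in mutants, and the groups were far apart. Its log2 fold change of -0.51 ± 0.05 (adjusted p = 0.00269) was larger in size than that of any of the 10 clock genes of that table.

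Of 8 repressors 2 were called lower in KI CB at 12 weeks, where 3.57% of all genes were called lower. They were Per3, counted above, and Bhlhe40, which encodes the E-box repressor DEC1. Bhlhe40 was 26.5, 26.0 and 26.6 FPKM in WT and 20.4, 23.8 and 21.98 FPKM in mutants (-0.26 ± 0.06, adjusted p = 0.0483). Of 6 other outputs 2 were called lower. Wee1, a cell cycle kinase with E-boxes, was 8.44, 8.30 and 7.31 FPKM in WT and 5.71, 5.86 and 5.90 FPKM in mutants (-0.45 ± 0.07, adjusted p = 0.0144). Lonrf3 had -0.33 ± 0.08 (adjusted p = 0.0488). Rorb, which encodes a ROR protein, was 3.24, 2.18 and 2.36 FPKM in WT and 1.84, 1.78 and 1.91 FPKM in mutants, without overlap (-0.45 ± 0.15, adjusted p = 0.111), and Rora had -0.06 ± 0.05 (adjusted p = 0.499). Cry1 (-0.07 ± 0.14), Nfil3 (0.14 ± 0.16) and Bhlhe41 (-0.13 ± 0.05) were not called, and limma called 0 of 8 kinases and ligases (3 at an unadjusted p below 0.05, all genes 24.4%).

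In KI IO at 12 weeks all 3 PAR bZIP genes and all 8 repressors had a lower mean. Of the former 2 were called (all genes 1.49%), both counted above: Tef and the Car11 and Dbp entry, which may be mostly Car11. Of the latter limma called 0, with 5 at an unadjusted p below 0.05 (all genes 13.3%). Ciart, a repressor that is among the most rhythmic genes, was 5.04, 5.38 and 5.22 FPKM in WT and 3.62, 4.22 and 4.28 FPKM in mutants, without overlap (-0.36 ± 0.08, adjusted p = 0.0673). Bhlhe40 (-0.20 ± 0.05) and Bhlhe41 (-0.20 ± 0.05) had the same direction without passing. Hlf overlapped between genotypes (-0.18 ± 0.07, adjusted p = 0.342). Dusp1, an immediate early phosphatase gene, was called lower (-0.37 ± 0.05, adjusted p = 0.0181), 1 of 10 immediate early genes tested. In Tg CB at 12 weeks Hlf was 38.6, 36.4 and 37.6 FPKM in WT and 33.8, 38.4 and 38.8 FPKM in mutants, with the genotypes mixed (-0.02 ± 0.06), and Npas2 was higher without passing (0.44 ± 0.16, adjusted p = 0.145).

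Clock genes also varied between replicates of a group. Over the 24 libraries of a tissue, the within-group SD of log2 FPKM was 0.32 for Per1 in the cerebellum, above that of 96.3% of 11827 genes, and 0.22 for Per2, above 89.4%. For Tef (0.10) and Arntl (0.10) it was near the median of all genes (0.11), and for Nr1d2 it was 0.05, above 6.88% of genes. In the inferior olive the Dbp entries varied most (0.21, above 91.9% of 12223 genes), followed by Per1 (0.18, above 87.5%). The Dbp value rests largely on KI IO at 5 weeks, where the entry is Dbp alone and deviations ran from -0.36 to 0.46. In the other inferior olive tables the Car11 and Dbp entry ran from -0.22 to 0.17. In all, 10 of the 20 values exceeded the median of all genes. The SE of the Per1 and Per2 differences was up to 0.27 on the log2 scale.

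Since the hour of dissection was not given, the libraries were asked whether Arntl moved against the outputs within groups, where the genotype is constant. Deviations from the group mean were correlated with those of Arntl over the 24 libraries of each tissue, in 18 relations, with 100000 permutations of the Arntl values within groups. No GC trend was removed from these deviations. Clock followed Arntl in the inferior olive, with Pearson r = 0.68 (permutation p = 0.00112, adjusted p = 0.0202) and Spearman rho = 0.69 (permutation p = 0.00249, adjusted p = 0.0448). Without the 2 libraries farthest from the median Arntl deviation r was 0.64. Within the KI libraries r was 0.58 (n = 12, permutation test, adjusted p = 0.388) and within the Tg libraries 0.87 (n = 12, permutation test, adjusted p = 0.0301).

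None of the outputs or repressors passed. Per3 in the inferior olive had r = -0.60 (adjusted permutation p = 0.123), with rho = -0.52, -0.41 within KI and -0.75 within Tg. Tef had r = -0.48 in the cerebellum and -0.45 in the inferior olive. The Dbp entries had r = -0.47 and -0.37. Nr1d1 had -0.20 and 0.11, and Per1 0.14 and -0.26, so the sign was not shared by all genes that peak opposite to Arntl. The Spearman coefficients had adjusted permutation p of 0.142 or more for all but Clock in the inferior olive.

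**Figure D4:**
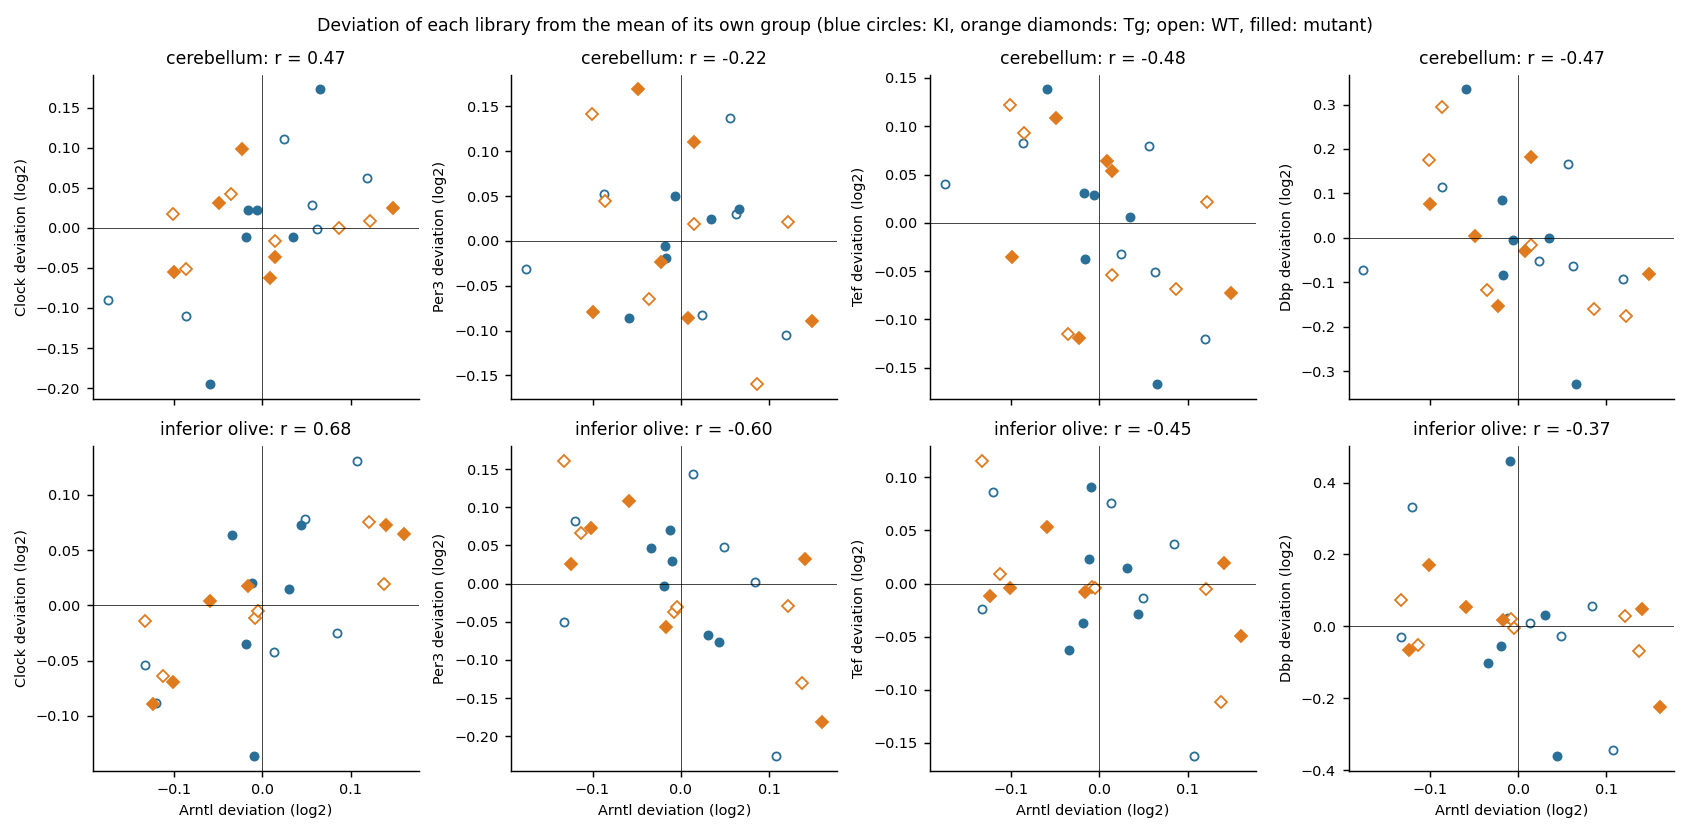
Deviation of each library from the mean of its group in log2 FPKM, for Arntl (x axis) and for Clock, Per3, Tef and Dbp (y axes, Dbp with Car11 in 7 of 8 tables), in the cerebellum (top) and the inferior olive (bottom). Blue circles are KI, orange diamonds are Tg, open symbols are WT and filled symbols are mutants. Clock rises with Arntl (r = 0.47 and 0.68), and the points of Per3, Tef and Dbp fall with it (r from -0.60 to -0.22) with wide scatter.

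The genes most alike to the Dbp entries in these deviations were not clock genes. Over 24 libraries, as a description, they were Ilvbl (r = 0.93), Ddr1 (0.93), Ssbp4 (0.92), Dctn2 (0.91) and Ap2a1 (0.91) in the cerebellum and Thra (0.88), Dlk2 (0.87), Dmap1 (0.87), Cdc42se2 (0.87) and Grpel1 (0.87) in the inferior olive. At the other end stood Man2a1 (-0.92), Zfp62 (-0.89), A830080D01Rik (-0.86) and Jrkl (-0.85), and Rps6ka3 (-0.89), Dnajb4 (-0.89), Zfp709 (-0.87), Zfp260 (-0.87) and Tbc1d4 (-0.87). Among clock genes, Nr1d1 was 76th of 10939 in the cerebellum (r = 0.85) and 1284th of 11364 in the inferior olive (0.61). Tef was 228th (0.80) and 308th (0.73), and Cry2 was 269th (0.73) in the inferior olive. In the cerebellum and the inferior olive Per1 had 0.14 and 0.26, Per2 -0.06 and 0.32, and Per3 0.32 and 0.57. Nr1d2 had the other sign from Nr1d1, at -0.43 and -0.60. Clock was near the bottom with r = -0.68 and -0.69. Here too no GC trend was removed. The longest annotated transcripts of Nr1d1, Cry2 and Tef are 56.8%, 55.6% and 53.1% GC, and those of Nr1d2 and Clock 41.8% and 40.9%. Those of Per1, Per2 and Per3 are 59.4%, 54.3% and 52.4% GC. The part of GC content in these correlations was not tested. All genes of a library share its preparation and its depth, and depth differed up to 1.96 times between libraries of a table. In every cerebellar table the entry is that of Car11 and Dbp, so likeness there may be mostly likeness to Car11. In the inferior olive the widest Dbp deviations came from KI IO at 5 weeks, where the entry is Dbp alone.

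Arntl was most alike to Anp32a (r = 0.83), Casq2 (0.79), Zfat (0.78), Zfp280d (0.78) and Pde5a (0.77) in the cerebellum and to Luzp1 (0.82), Chordc1 (0.81), Tsga10 (0.81), Stk4 (0.79) and Taok3 (0.79) in the inferior olive. Low values were with Sema4a (-0.80), Pacs2 (-0.78), Nipa1 (-0.77) and Glrx (-0.77), and with Vasn (-0.79), Lss (-0.76), Ercc8 (-0.76), Mettl22 (-0.75) and Ky (-0.75). Clock was 49th of 11363 genes in likeness to Arntl in the inferior olive and 573rd of 10939 in the cerebellum. Per3 was 117th from the bottom in the inferior olive. The hour at which each mouse was dissected is not given, and its part in the differences between KI mutants and WT controls was not tested.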

How the data were processed

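Poly-A selected RNA was sequenced as paired-end reads. Per the labels and the methods, the authors aligned them with TopHat2 2.1.0 to mm10, quantified them with Cufflinks 2.2.1 and deposited 8 tables of FPKM, normalized by Cuffnorm within each table, so levels were tested within a table and not across tables. The tables also hold the authors' group averages, Cuffdiff fold changes, p and q values, which were not used. Strand use in counting is not given in the sources used here. Depth was estimated from the lowest FPKM values, since no counts are given.

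Mutants and WT were compared within each table by limma 3.58.1 (R 4.3.3) on log2(FPKM + 0.1) with a mean-variance trend, leaving out any gene whose average fell under 0.5 FPKM in the WT or the mutant group. Fold changes on this scale understate those of low genes. All p-values are two-sided and Benjamini-Hochberg adjusted over all genes tested, with calls below 0.05. Interactions were fitted on 4 groups. Entries naming several genes were kept under their joint name. The code was tested on simulated data. Genes named outside the 10 members come from lists of clock, response and marker genes, and the genes named as alike to Dbp and Arntl are from the 5 most and 5 least alike. Some genes of these lists are not reported here. The members and lists were chosen with earlier results of these data known. Alternatives covered the pseudocount, the filter, median rescaling, the trend, a replicate block, omission of each library and, added after seeing the data, GC trends and a sum of the Dbp and Car11 entries. Promoters were read from RefSeq (9 of 10 members matched) and exons from GENCODE.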

Additional observations from a re-analysis of the deposited data

Results flagged for a closer look

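In the cerebellum at 12 weeks the interaction test in limma called 2 of 9 clock genes, where 11.7% of all 12327 genes were called. For these 2 the genotype effect differed between the KI and Tg models. For Arntl the mutant minus WT difference was 0.25 in KI and -0.36 in Tg on the log2 scale, and Tg minus KI was -0.61 (adjusted p = 0.00445), with all 3 KI mutants above and all 3 Tg mutants below the WT libraries of their table. For Per3 the differences were -0.43 in KI and 0.00 in Tg, and Tg minus KI was 0.43 (adjusted p = 0.0194), with all 3 KI mutants below their WT libraries and the Tg genotypes mixed.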

How the results depend on the processing

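With 3 libraries a group, calls near the threshold depended on single libraries. Omission of 1 library gave 0 to 3 called clock genes in KI CB at 12 weeks, 0 to 2 in KI IO at 12 weeks, 0 to 1 in Tg CB at 5 weeks, 0 to 1 in Tg CB at 12 weeks, 0 to 1 in the test of tissue in Tg at 12 weeks and 1 to 2 in the test of model in the cerebellum at 12 weeks. Without a mean-variance trend 1 was called in KI CB and 0 in KI IO at 12 weeks, and with GC trends removed 1 in KI IO. The cause was not tested. Of the relations with Arntl, 0 passed within KI, and 2 (Clock in the inferior olive and the Dbp entries in the cerebellum) without the 2 libraries farthest from the median. The 10 values called in at least 1 fit kept their direction in all 142 alternatives and were called in 75. Of 2846 alternatives of the other 184 member values, 211 had the other sign, with adjusted p of 0.634 or more.

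Replicate numbers were not taken as pairs of WT and mutant libraries. In no table did all 3 same-numbered WT and mutant libraries correlate above 0.1 in their deviations, which does not exclude a pairing. In Tg IO at 12 weeks each library correlated best with its own number (0.19, 0.08 and 0.17). Between cerebellum and inferior olive, all 3 same-numbered pairs exceeded 0.1 in 1 of 8 groups, Tg mutants at 12 weeks (0.30, 0.32 and 0.15), but not in the Tg WT at that age. With the block the Arntl difference between tissues in Tg at 12 weeks had an adjusted p of 0.137. With the replicate number as a block 1 clock gene was called in KI CB (Tef) and 0 in KI IO at 12 weeks. Neither FPKM nor the tables give counts, so no counting error can be given.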
